A study of Mus musculus with 6 samples.

Results

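The 10 genes described here, Tubb3, Elavl3, Elavl4, Stmn2, Snap25, Syt1, Nefl, Nefm, Slc17a6 and Gad1, are used in almost every kind of neuron or mark its transmitter, and they were picked by symbol with no threshold on their values, though with earlier results of these data known. All 10 were among the 24346 gene symbols measured in the nasomaxillary complex, the nose and upper jaw of the mouse, at E17.5, shortly before birth. Each library gave 1 FPKM value per gene (mapped fragments scaled by transcript length and by library depth), so levels can be set side by side between genes as well as between libraries. The 3 mutant libraries came from Wnt1-Cre:Pth1r f/f embryos and the 3 control libraries from Pth1r f/f embryos without Cre, all untreated. Both groups therefore carry the floxed allele of Pth1r (a receptor for parathyroid hormone and the related peptide Pthlh). Wnt1-Cre recombines in the neural crest and in the dorsal part of the early neural tube. The controls lack the transgene, so an effect of Cre and one of losing Pth1r cannot be told apart. Nothing in the labels ties each library to its own embryo or litter, so the spread that p-values measure here may be technical. Xist, a transcript of female cells, was high in mutant replicate 1 and low in mutant replicates 2 and 3. Mutant replicate 1 therefore came from another embryo than those.

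The nose of a late mouse embryo holds several kinds of neurons. Olfactory sensory neurons sit in the epithelium of the nasal cavity, arise there from dividing progenitors, and have short unmyelinated axons with little neurofilament. The face also receives axons of the trigeminal ganglion, whose cell bodies lie outside the nose, and small autonomic ganglia lie within it. Neurons derived from the neural crest, such as part of the trigeminal ganglion and the autonomic ganglia, are within reach of Wnt1-Cre, whereas most olfactory neurons come from the olfactory placode. Pan-neuronal genes do not tell these neurons apart. They encode parts that neurons share, namely a tubulin and growth-related regulators of microtubules (Tubb3, Stmn2), RNA-binding proteins that stabilise neuronal transcripts (Elavl3, Elavl4), the machinery of vesicle release (Snap25, Syt1) and neurofilaments (Nefl, Nefm). Slc17a6 loads vesicles with glutamate, and Gad1 makes the inhibitory transmitter GABA and is also needed for closure of the mouse palate.

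Promoters of 6 of the 10 genes were found in a RefSeq table for GRCm38.p6, and those of Elavl3, Elavl4, Tubb3 and Syt1 are shown because the first 3 followed each other closely across libraries and Syt1 holds a match. Each sequence is the 250 bases before the first listed transcription start, 5′ to 3′ on the gene's strand. Capitals mark a match to CAGCTG, an E-box bound by proneural factors, or to GGACAG, the right-hand element of the RE1 site bound by the repressor Rest, on either strand.
Elavl3, chr9:22052024-22052273, minus strand: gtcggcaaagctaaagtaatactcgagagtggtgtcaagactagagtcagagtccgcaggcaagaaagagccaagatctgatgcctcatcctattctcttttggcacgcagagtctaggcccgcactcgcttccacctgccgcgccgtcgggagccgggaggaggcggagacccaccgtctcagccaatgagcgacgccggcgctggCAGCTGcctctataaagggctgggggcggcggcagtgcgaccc
Elavl4, chr4:110351912-110352161, minus strand: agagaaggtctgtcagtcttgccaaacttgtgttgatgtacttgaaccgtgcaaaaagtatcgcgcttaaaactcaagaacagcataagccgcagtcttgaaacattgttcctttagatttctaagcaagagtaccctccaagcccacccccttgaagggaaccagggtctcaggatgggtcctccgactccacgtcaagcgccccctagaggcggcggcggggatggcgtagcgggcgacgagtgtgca
Tubb3, chr8:123411303-123411552, plus strand: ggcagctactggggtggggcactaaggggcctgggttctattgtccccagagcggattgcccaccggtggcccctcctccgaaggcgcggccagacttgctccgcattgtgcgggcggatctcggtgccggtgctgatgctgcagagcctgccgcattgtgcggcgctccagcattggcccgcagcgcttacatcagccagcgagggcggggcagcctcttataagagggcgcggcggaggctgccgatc
Syt1, chr10:109010976-109011225, minus strand: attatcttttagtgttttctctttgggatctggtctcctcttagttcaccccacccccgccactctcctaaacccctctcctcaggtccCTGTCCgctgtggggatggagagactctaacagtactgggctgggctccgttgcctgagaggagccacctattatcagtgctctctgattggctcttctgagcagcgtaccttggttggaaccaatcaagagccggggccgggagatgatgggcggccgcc
The Elavl3 window held 1 CAGCTG, whose first base lay 43 bases before the start, and the Syt1 window held 1 GGACAG, read on the opposite strand, 161 bases before it. In these windows neither the Elavl4 nor the Tubb3 promoter held any of the motifs searched, which also included the E-box CAGATG, the left-hand RE1 element TTCAGCACC and the Ebf (Olf-1) motif. Over 27025 promoters, 12.8% held CAGCTG, 18.7% GGACAG, 14.5% CAGATG, 0.285% TTCAGCACC and 0.788% the Ebf motif, so each match is of a kind found in many promoters. The Tubb3 window had 68.0% G and C and 21 CpG dinucleotides, the Elavl3 window 61.6% and 20, the Syt1 window 56.4% and 8, and the Elavl4 window 53.6% and 14, against a median of 52.0% G and C over all promoters. The Gad1 and Slc17a6 windows held no match either, and Stmn2, Snap25, Nefl and Nefm were not in the table. Elavl4 had 4 listed starts, and Syt1 and Slc17a6 had 2 each. Only the first start of each gene was searched.

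Tubb3 was the most abundant of the 10 transcripts and Gad1 the rarest. Over the 6 libraries Tubb3 lay between 79.5 and 138 FPKM, Stmn2 between 64.7 and 106 FPKM, and Elavl3 between 27.4 and 40.0 FPKM. Snap25 followed at 12.7 to 18.6 FPKM, then Elavl4 at 4.82 to 11.2 FPKM and Syt1 at 5.34 to 7.29 FPKM. The ranges of Tubb3 and Stmn2 overlapped, as did those of Elavl4 and Syt1, and the other neighbours in this order did not overlap. Slc17a6 measured 3.77 to 4.65 FPKM, Nefl 2.51 to 3.18 FPKM, Nefm 0.901 to 1.55 FPKM and Gad1 0.186 to 0.318 FPKM. Nefl and Nefm transcripts were therefore far below those of Tubb3 and Stmn2 in every library. With the longest annotated transcript and a depth inferred from the spacing of low values, Tubb3 rested on an estimated 1686 to 3602 fragments per library, Nefm on 42 to 78 and Gad1 on 7 to 15, so the last is limited by counting error.

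**Figure D1:**
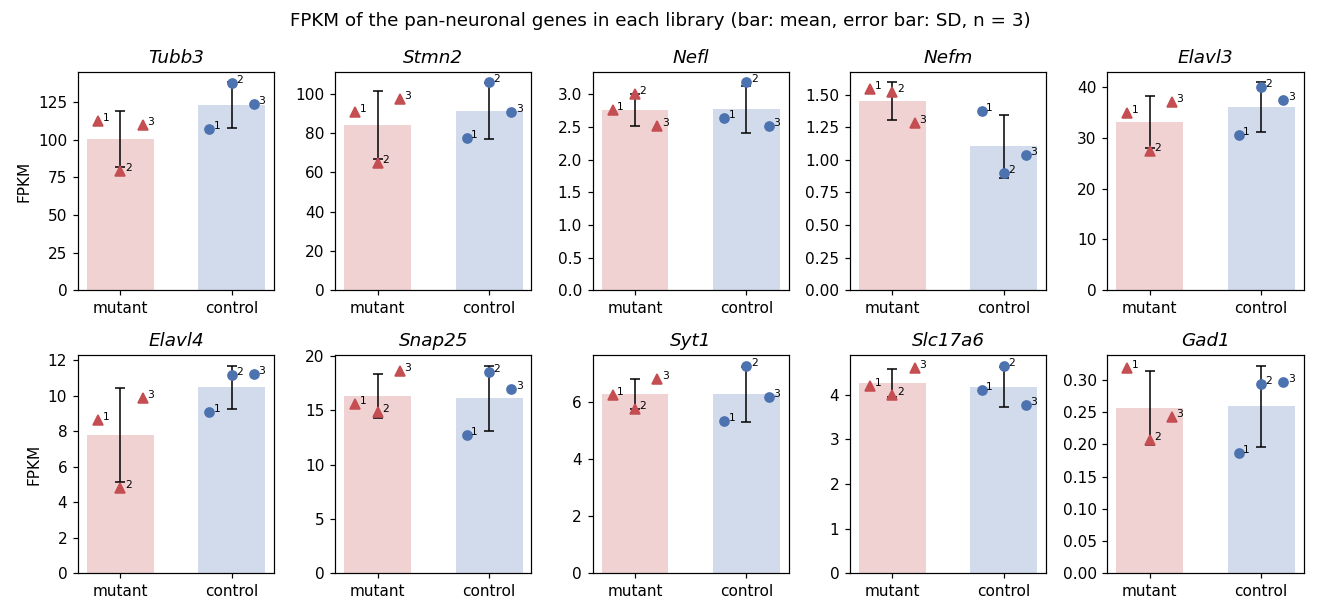
FPKM (vertical axis, from 0, its own scale in each panel) of the 10 pan-neuronal genes in mutant (red triangles) and control (blue circles) libraries, with replicate numbers beside the points, bars at the mean and error bars of 1 SD (n = 3 each). In every panel the 2 groups overlap, and mutant replicate 2 is lowest of the 6 for Tubb3 (79.5 FPKM), Stmn2, Elavl3 and Elavl4 (4.82 FPKM).

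The comparison of mutant with control asked whether neuronal transcripts differed in the nose and upper jaw of embryos with Wnt1-Cre and floxed Pth1r. The 9 pan-neuronal genes whose mean over libraries reached 1 FPKM were tested with limma, and none was called in either direction at an adjusted p of 0.05 over 14766 tested genes. Over all tested genes 0.203% were called lower and 0.0610% higher. None of the 9 had an unadjusted limma p under 0.05 either, against 11.3% of all tested genes, and in none did mutant and control libraries stand apart, against 17.0% of all tested genes. Of the 9, 5 had negative and 4 positive log2 changes of FPKM + 1 (50.8% of all tested genes had negative ones), with a median of -0.0037, beside a median of -0.0020 over all tested genes. Gad1 fell below the limit of 1 FPKM and was not tested across genes.

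Among the cytoskeletal genes, Tubb3, the neuronal beta-tubulin (chr8:123411424-123422015, plus strand, GRCm38), measured 113, 79.5 and 109.7 FPKM in mutant replicates 1 to 3, against 107, 138 and 124 FPKM in control replicates 1 to 3. Mutant replicate 2 stood below the rest, and the other mutant libraries fell between control replicates 1 and 3. The log2 change was -0.30 ± 0.15 (SE), with a 95% interval from -0.64 to 0.049 and a limma adjusted p of 0.501. Without mutant replicate 2 the log2 change was -0.14. With sex as a covariate it was -0.12, a value that rests on mutant replicate 1, the only female mutant library. Stmn2, a stathmin of growing and regenerating axons (chr3:8509360-8561606, plus strand), measured 90.6, 64.7 and 97.1 FPKM in mutant libraries, against 77.6, 106 and 90.5 FPKM in control libraries. Again mutant replicate 2 was lowest and control replicate 2 highest, and the log2 change was -0.13 with a 95% interval from -0.52 to 0.27. Without mutant replicate 2 it was 0.050, and with sex as a covariate -0.00019.

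Nefl and Nefm did not share that low library, mutant replicate 2. By contrast, the filament genes Ina and Prph of the wider cytoskeletal list were lowest there, at 9.11 and 18.7 FPKM. Nefl, the light chain (chr14:68083863-68089095, plus strand), measured 2.76, 3.0 and 2.51 FPKM in mutant libraries, against 2.63, 3.18 and 2.51 FPKM in control libraries. The groups covered nearly the same range, and the log2 change was -0.0037 with a 95% interval from -0.25 to 0.24. Nefm, the medium chain (chr14:68082590-68124846, minus strand), measured 1.55, 1.52 and 1.28 FPKM in mutant libraries, against 1.37, 0.901 and 1.04 FPKM in control libraries. Here 2 mutant libraries stood above every control and the third between them, so the groups overlapped; the log2 change was 0.22 with a 95% interval from -0.079 to 0.53 and a limma adjusted p of 0.568. The annotated span of Nefm encloses Nefl on the opposite strand, and the strand setting of the counting is not given in the sources used here, so reads from the shared stretch may not be told apart.

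Of the RNA-binding genes, Elavl4 (HuD; chr4:110203722-110351909, minus strand) varied most. It measured 8.64, 4.82 and 9.86 FPKM in mutant libraries, against 9.05, 11.1 and 11.2 FPKM in control libraries. Mutant replicate 2 had less than any other library, while mutant replicate 3 stood above control replicate 1. The log2 change was -0.43 ± 0.22 (SE), the largest of the 9 in size, with a 95% interval from -0.95 to 0.093 and a limma adjusted p of 0.523, and it was -0.16 without mutant replicate 2. Adding sex as a covariate, which sets mutant replicate 1 alone against the controls, gave -0.24. Elavl3 (HuC; chr9:22015005-22052023, minus strand) measured 34.9, 27.4 and 37.1 FPKM in mutant libraries, against 30.5, 40.0 and 37.5 FPKM in control libraries. Its groups were interleaved, with a log2 change of -0.12 and a 95% interval from -0.44 to 0.20. These genes are paralogs of each other and of Elavl2, so counts in stretches of shared sequence are uncertain.

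The vesicle genes were near 0 in change. Snap25, a membrane-fusion protein of the presynaptic terminal (chr2:136713453-136782428, plus strand), measured 15.6, 14.8 and 18.6 FPKM in mutant libraries, against 12.7, 18.6 and 17.0 FPKM in control libraries. Control replicate 1 was lowest, and mutant replicate 3 and control replicate 2 were level at the top. The log2 change was 0.030 with a 95% interval from -0.30 to 0.36. Syt1, the calcium sensor of fast release (chr10:108497650-109010982, minus strand), measured 6.25, 5.78 and 6.83 FPKM in mutant libraries, against 5.34, 7.29 and 6.20 FPKM in control libraries. The order of libraries was much as for Snap25, and the log2 change was 0.0078 with a 95% interval from -0.25 to 0.27.

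Of the transmitter genes, Slc17a6 (chr7:51622006-51671119, plus strand) was the steadiest of the 10. It measured 4.19, 3.99 and 4.60 FPKM in mutant libraries, against 4.10, 4.65 and 3.77 FPKM in control libraries, so its highest value was 1.23 times its lowest. Its log2 change was 0.027 with a 95% interval from -0.19 to 0.24. Gad1 (chr2:70553072-70602014, plus strand) measured 0.318, 0.206 and 0.242 FPKM in mutant libraries, against 0.186, 0.293 and 0.297 FPKM in control libraries. Both groups spread over the same low range, and an exact two-sided permutation test gave p = 1.0 (3 against 3, where the smallest possible p is 0.1). In exact permutation tests of the other 9 genes p ranged from 0.2, for Elavl4 and Nefm, to 1.0, for Nefl and Syt1.

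The same 9 genes were then compared with each other over the 6 libraries, on log2(FPKM + 1). The 7 genes other than Nefl and Nefm had positive Pearson correlations in all 21 of their pairs, from 0.30 to 0.98 with a median of 0.75. The pairs with Nefl or Nefm had negative correlations in 12 of 15, from -0.78 to 0.33 with a median of -0.27. This split was seen in the values and not set beforehand. The closest pair was Stmn2 and Elavl3, with r = 0.98 (exact permutation p = 0.0056, adjusted over 36 pairs 0.083) and Spearman rho = 0.83 (exact p = 0.058). Without the 2 libraries farthest from the median of Stmn2, mutant replicate 2 and control replicate 2, r was 0.93. Snap25 and Syt1 had r = 0.95 (exact p = 0.0083, adjusted 0.083), rho = 0.89 (exact p = 0.033) and r = 0.91 without mutant replicate 3 and control replicate 1.

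The correlations of Tubb3 with Stmn2, Elavl3 and Elavl4 were lower without mutant replicate 2 and control replicate 2, the libraries farthest from its median. Tubb3 and Stmn2 had r = 0.91 (exact p = 0.014, adjusted 0.083), rho = 0.77 (exact p = 0.10), and r = 0.33 without these libraries, so this relation rests on them. Tubb3 and Elavl3 had r = 0.92 (exact p = 0.0042, adjusted 0.083), rho = 0.94 (exact p = 0.017), and r = 0.65 without them. Tubb3 and Elavl4 had r = 0.95 (exact p = 0.013, adjusted 0.083), rho = 0.77 (exact p = 0.10), and r = 0.77 without those libraries. Elavl3 and Elavl4 had r = 0.89 (exact p = 0.011, adjusted 0.083), rho = 0.89 (exact p = 0.033), and r = 0.87 without mutant replicate 2 and control replicate 1. The lowest correlation was between Tubb3 and Nefm, r = -0.78 (exact p = 0.054, adjusted 0.19), rho = -0.66 (exact p = 0.18), and r = -0.72 without mutant replicate 2 and control replicate 2. Nefl and Nefm, whose products assemble together, had r = -0.16 (exact p = 0.75, adjusted 0.85), rho = 0.086 (exact p = 0.92) and r = 0.87 without mutant replicate 2 and control replicate 2. Of the 36 pairs 9 had an exact p under 0.05 and 0 passed after adjustment, by Pearson or by Spearman. After each group was centred on its own mean the median r over pairs was 0.57, beside 0.47 uncentred, so the agreement was also present among libraries of the same genotype.

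**Figure D2:**
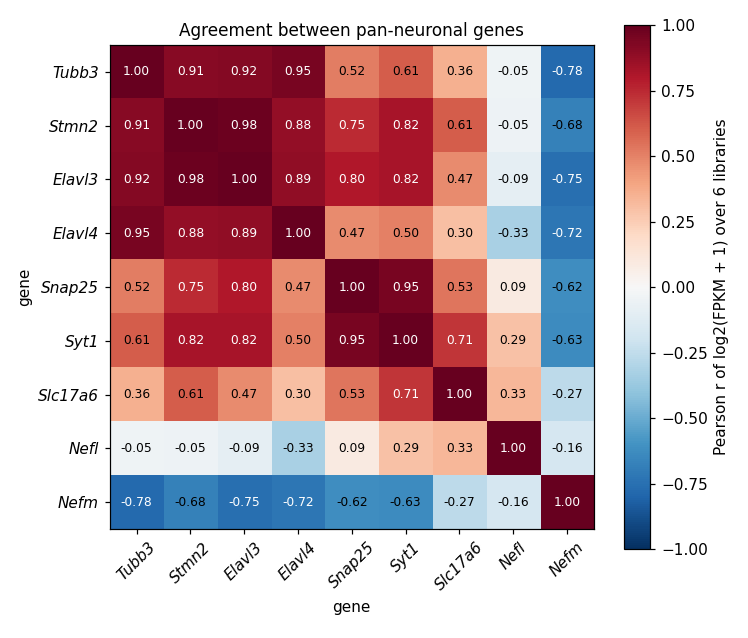
Pearson r of log2(FPKM + 1) over the 6 libraries for each pair of the 9 pan-neuronal genes above 1 FPKM (colour and number, from -1 to 1). The block of Tubb3, Stmn2, Elavl3 and Elavl4 at the upper left has values from 0.88 to 0.98, and the Nefm row is negative throughout.

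Order by library showed the same thing without a correlation. Of the 9 genes, 6 were highest in control replicate 2 and 8 were highest or second highest there. Mutant replicate 2 was the lowest library for 4 genes and the lowest or second lowest for 7, and control replicate 1 was so for 5. The summed FPKM of the 10 genes was 278, 206 and 288 in mutant replicates 1 to 3, against 251, 330 and 294 in control replicates 1 to 3. The spread within each genotype was thus wider than the distance between the means of the genotypes. In a bulk sample a lower share of neurons and less RNA per neuron cannot be told apart.

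Other tissues of the dissection moved across the same libraries. Relative to the control mean, the 16 skeletal muscle genes averaged 0.55, 1.39 and 0.25 (log2) in mutant replicates 1 to 3, against 0.29, -0.26 and -0.025 in control replicates 1 to 3. Mutant replicate 2, lowest in pan-neuronal transcripts, was the highest in muscle, and control replicate 2, highest in pan-neuronal transcripts, was the lowest. With the muscle mean as a covariate the log2 change of Tubb3 was 0.054, of Elavl4 0.12, of Elavl3 0.20 and of Stmn2 0.29, with limma adjusted p of 0.31 or more. The 16 tested Schwann cell genes averaged 0.47 in mutant replicate 2, and between -0.082 and 0.067 in the other 5 libraries. Of these 16 genes 13 had positive and 3 negative changes, with a median of 0.17. Only S100b was called, lower in mutant, beside 0.203% of all tested genes called lower. It measured 10.1 ± 0.418 FPKM in mutant, against 17.8 ± 0.941 FPKM in control (SD, n = 3 each, limma adjusted p = 0.0066). That call was lost with sex as a covariate and with the muscle mean as a covariate (limma adjusted p = 0.087 for muscle). The log2 change itself was -0.76 without a covariate, -0.80 with sex and -0.78 with the muscle mean. The fit with sex sets mutant replicate 1 alone against the controls. The part of muscle or Schwann cell content in the neuronal values was not tested.

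**Figure D3:**
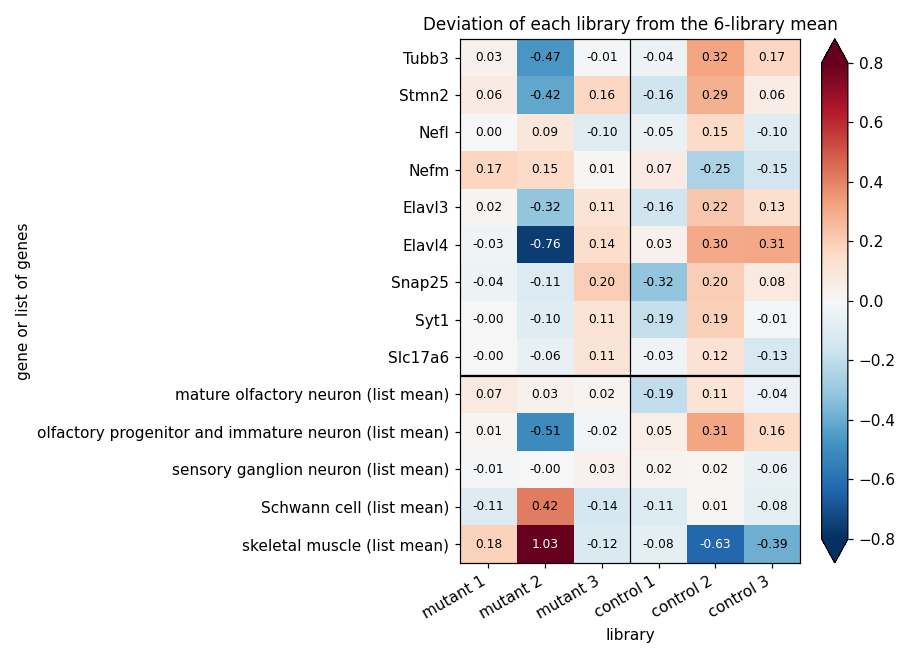
Log2(FPKM + 1) of each library minus the mean of the 6 libraries, for the 9 pan-neuronal genes (upper rows) and for the mean of 5 marker lists (lower rows); colours saturate at -0.8 and 0.8 and numbers give the values. Mutant replicate 2 is low for Tubb3, Stmn2, Elavl3, Elavl4 and the olfactory progenitor list, but not for Nefl, Nefm or the mature olfactory list, and it is the highest library for muscle.

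Markers of particular neurons were set beside the pan-neuronal genes. All 15 mature olfactory neuron genes passed the limit of 1 FPKM, and Gng13 and Gfy were as abundant as Tubb3, whose mean over the 6 libraries was 111.9 FPKM. Omp, the marker protein of mature olfactory neurons, measured 90.0 ± 3.90 FPKM in mutant and 79.9 ± 8.55 FPKM in control (SD, n = 3 each), and Gng13, a G protein subunit of olfactory cilia, 133 ± 9.09 FPKM in mutant and 136 ± 8.63 FPKM in control. Of the sensory ganglion list 10 of 22 genes stayed below 1 FPKM in every library. Pou4f1, a defining factor of sensory ganglion neurons, lay between 0.09 and 0.21 FPKM in mutant and between 0.04 and 0.12 FPKM in control. Others of that list were higher, with means over the 6 libraries of 11.9 FPKM for Ntrk2, 11.1 for Ntrk3 and 6.06 for Piezo2. Of the autonomic list 7 of 10 stayed below 1 FPKM in every library. Of the forebrain list 6 of 8 stayed below 1 FPKM in every library, including Emx1 and Tbr1. By the mean over libraries, 9580 of all 24346 genes fell below 1 FPKM. That held for 11 of 22 sensory ganglion, 8 of 10 autonomic and 6 of 8 forebrain genes.

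Which other neuron genes followed the pan-neuronal genes was described by their Pearson r, over the 6 libraries, with the mean of the standardised values of the 9 genes. Of all other tested genes 4.87% had r of at least 0.8, against 70.6% (12 of 17) in the neuronal cytoskeleton list, among them Dpysl3 (0.98), Prph (0.94) and Tubb2b (0.92). The share was 42.9% (3 of 7) for other neuronal RNA-binding genes and 40.0% (8 of 20) for vesicle release. It was 37.5% (3 of 8) for olfactory progenitors and 20.0% (3 of 15) for mature olfactory neurons, with Omp at 0.30. Among the remaining neuron lists, 2 of 6 neuronal regulators reached 0.8 (median r 0.71), 2 of 11 sensory ganglion genes (median r -0.23), 0 of 3 transmitter genes (median r -0.75), 0 of 2 autonomic genes (median r -0.29) and 0 of 2 vomeronasal and GnRH genes (median r 0.069). In the epithelial list it was 44.4% (4 of 9), with the epithelial adhesion genes Cdh1 at 0.95 and Epcam at 0.92. Some genes of other cells thus followed the same pattern. Other epithelial genes did not, with Krt15 at -0.39, Krt5 at -0.29, Krt14 at -0.23 and Trp63 at -0.18. The share was 0 of 16 in each of the Schwann cell and muscle lists. The 8 genes nearest to the pan-neuronal mean, with r from 0.98 to 0.99, were Trim37, Erich3, Adgrg1, Clmn, D930020B18Rik, Grtp1, Magi3 and Rtn1, and 241 of 14757 genes reached r of 0.9. With 6 points such values are a description.

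The other neuron genes were also compared between genotypes. Of 135 genes in 10 neuron lists, 134 were in the files under the listed symbol and 91 were tested. By limma, with adjustment over the whole table, 0 of these 91 were called, beside 0.264% of all tested genes. Unadjusted, 10 of the 91 had a limma p under 0.05, and in 14 the groups did not overlap, shares near the 11.3% and 17.0% of all tested genes. Their median log2 change was -0.0097, with 48 negative and 43 positive.

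The list of 8 olfactory progenitor and immature neuron genes had 8 negative changes and a median of -0.30, with Emx2 at -0.0097. Relative to the control mean, the list averaged -0.17, -0.69 and -0.20 (log2) in mutant replicates 1 to 3. Control replicates 1 to 3 averaged -0.12, 0.14 and -0.015. Mutant replicate 2 was thus far lowest, and mutant replicates 1 and 3 lay near control replicate 1. Neurog1, a proneural factor of neuronal precursors, measured 5.20, 2.89 and 3.81 FPKM in mutant libraries, against 5.99, 7.40 and 5.25 FPKM in control libraries. All mutant values lay below all control values, and the log2 change of -0.55 ± 0.18 (SE) did not pass adjustment. Its means were 3.97 ± 1.16 FPKM in mutant and 6.21 ± 1.09 FPKM in control (SD, n = 3 each; limma adjusted p = 0.335). The 15 mature olfactory genes had 12 positive changes and a median of 0.13, with a log2 change of 0.17 for Omp (limma adjusted p = 0.467). The other 17 tested cytoskeletal genes had 12 negative changes and a median of -0.045, with Tubb2b, a tubulin of newborn neurons, at -0.16 and Uchl1, a neuronal ubiquitin hydrolase, at -0.14.

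Of 20 tested vesicle release genes, 10 had negative and 10 positive changes, with a median of -0.00095. The lowest adjusted p among them was that of Scg2, a granin of dense-core vesicles, which measured 3.38, 2.97 and 3.40 FPKM in mutant libraries, against 4.69, 5.46 and 5.73 FPKM in control libraries. The groups did not overlap, and the log2 change was -0.56 ± 0.093 (SE; limma adjusted p = 0.091). Chgb, another granin, measured 3.22 ± 0.237 FPKM in mutant and 4.27 ± 0.729 FPKM in control (SD, n = 3 each; limma adjusted p = 0.378), while the granin Chga, at 42.8 ± 3.57 FPKM in mutant and 40.6 ± 6.54 FPKM in control, had a log2 change of 0.083. Of 17 other transmitter genes 14 were below the limit of 1 FPKM. Slc6a4, the serotonin transporter, had 1.86 ± 0.70 FPKM in mutant and 1.08 ± 0.171 FPKM in control (SD, n = 3 each; limma adjusted p = 0.430).

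**Figure D4:**
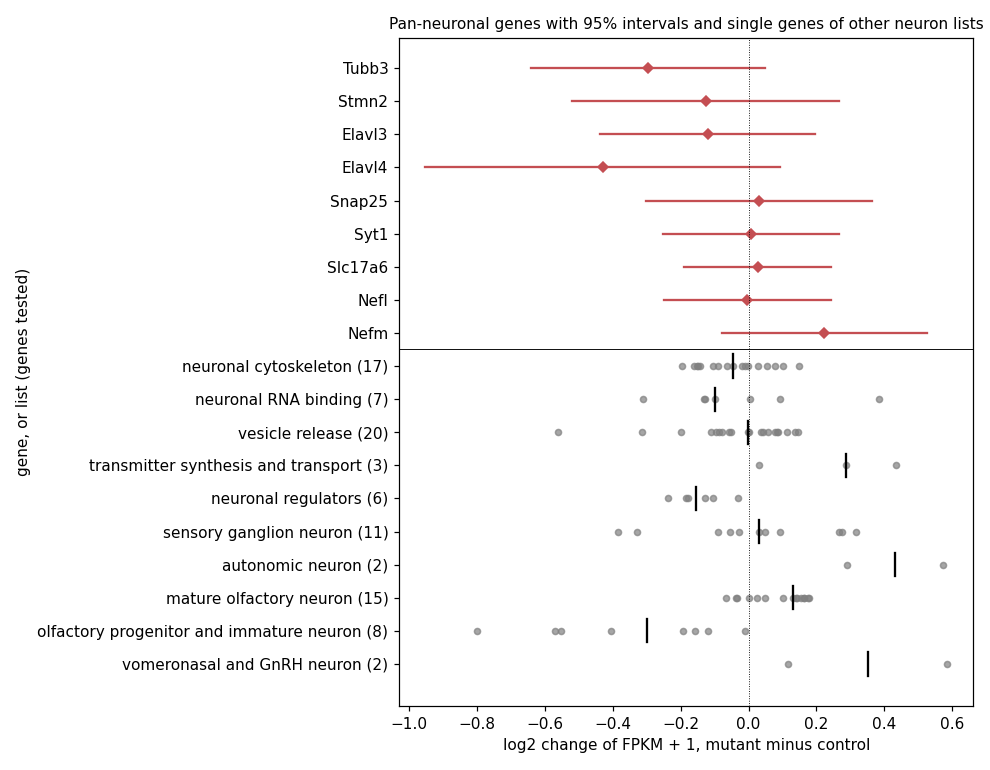
Log2 change of FPKM + 1, mutant minus control (horizontal axis), for the 9 pan-neuronal genes with 95% limma intervals (red, upper rows) and for single genes of 10 neuron lists (grey points, with a black bar at the list median and the number tested in parentheses). All 9 intervals include 0, and all 8 genes of the progenitor list lie to the left of 0, with a median of -0.30. That list was far lowest in mutant replicate 2.

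Markers of neurons other than olfactory ones were mixed in sign. The 11 tested sensory ganglion genes had 5 negative and 6 positive changes, with a median of 0.031. Among them Ntrk2, the receptor of brain-derived neurotrophic factor, had 13.5, 14.2 and 12.1 FPKM in mutant libraries, against 10.34, 10.99 and 10.04 FPKM in control libraries. All mutant values lay above all control values, with a log2 change of 0.32 that did not pass adjustment (limma adjusted p = 0.205). Ret, the receptor of the glial cell line-derived neurotrophic factor family, had 1.33 ± 0.167 FPKM in mutant and 2.05 ± 0.185 FPKM in control (SD, n = 3 each; limma adjusted p = 0.288). Gnrh1, the hormone gene of neurons that migrate from the nose to the brain, had 8.92, 7.32 and 5.77 FPKM in mutant libraries, against 4.56, 5.76 and 3.40 FPKM in control libraries (limma adjusted p = 0.329). Its lowest mutant value was level with its highest control value. The 2 tested autonomic genes, Npy and Gata3, had positive changes with a median of 0.43, and Npy, a peptide of sympathetic neurons, measured 10.1 FPKM in mutant replicate 2, against 2.94 to 4.88 FPKM in control libraries. The 6 tested neuronal regulators had 6 negative changes and a median of -0.15, and the 7 other RNA-binding genes 4 negative and 3 positive, with Elavl2, the third neuronal member of that family, at -0.31 and the splicing factor Rbfox1 at 0.39. In the forebrain list 0 of 2 tested genes were called and in the brain glia list 0 of 4. In the muscle list 0 of 16 were called, but all 16 changes were positive (median 0.71) and in 7 the groups did not overlap. In the epithelial list 0 of 9 were called, 7 changes were positive (median 0.024) and in 4 the groups did not overlap. Over all tested genes 0.264% were called, and in 17.0% the groups did not overlap.

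Ratios of the 9 genes within each library were also compared, a step chosen after their values were seen. Of 36 ratios, 10 (27.8%) had mutant and control values that did not overlap, and 9 of these 10 had Tubb3 or Elavl4 in them. Elavl4 over Syt1 was 1.38, 0.833 and 1.44 in mutant libraries, against 1.69, 1.53 and 1.81 in control libraries. Tubb3 over Syt1 was 18.1, 13.7 and 16.1 in mutant libraries, against 20.1, 18.9 and 20.0 in control libraries. So Tubb3 and Elavl4 were lower relative to Syt1 in each mutant library than in any control library, and both were likewise lower relative to Snap25. Elavl4 was also lower relative to Slc17a6, Stmn2 and Elavl3. Tubb3 over Stmn2 was 1.25, 1.23 and 1.13 in mutant libraries, against 1.38, 1.30 and 1.37 in control libraries, and Tubb3 over Elavl3 was 3.24, 2.90 and 2.96, against 3.52, 3.44 and 3.31. Tubb3 and Elavl4 did not separate from each other, with ratios of 13.1, 16.5 and 11.1 in mutant libraries, against 11.9, 12.4 and 11.1 in control libraries.

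For each non-overlapping ratio the exact two-sided permutation p was 0.1, the smallest that 3 against 3 allows, and 0.36 after adjustment over the 36 ratios. As background, 3.13% of all other tested genes had a non-overlapping ratio to Snap25, 3.68% to Stmn2, 4.56% to Syt1, 5.04% to Elavl3, 5.88% to Nefl and 7.41% to Slc17a6. The shares were 19.2% for ratios to Tubb3, 20.4% to Elavl4 and 25.5% to Nefm, so the ratios of Tubb3 and Elavl4 to many genes outside the neuron lists did not overlap either. The count of 10 was 22 without control replicate 1 and 16 without mutant replicate 3, where fewer libraries make separation easier, and between 10 and 14 without any of the others.

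**Figure D5:**
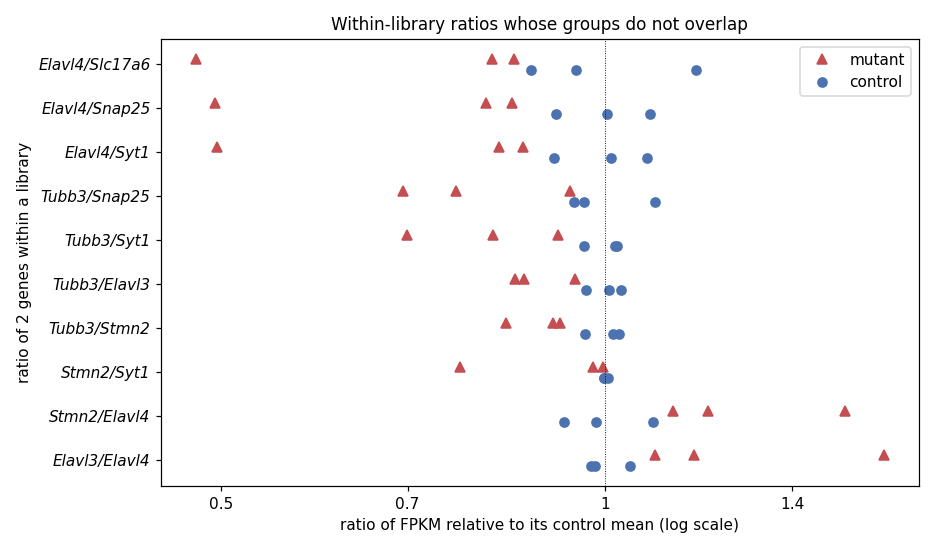
The 10 within-library ratios of 2 pan-neuronal genes whose groups do not overlap, each divided by its control mean (horizontal axis, log scale), for mutant (red triangles) and control (blue circles) libraries. The 3 ratios with Elavl4 on top are farthest below 1 in mutant replicate 2.

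Facts of the libraries bear on these values. Pth1r itself measured 69.7 to 78.4 FPKM in mutant and 55.2 to 75.2 FPKM in control, and since the floxed exons are not named in the labels, these overlapping values do not check the genotype. Xist, a transcript of female cells, was at 77.1 FPKM in mutant replicate 1 and at 0.026 and 0.029 FPKM in mutant replicates 2 and 3. It was at 74.1 to 74.4 FPKM in the 3 control libraries, so sex was uneven between the groups. A fit with sex as a covariate therefore sets mutant replicate 1 alone against the controls. All 8 cartilage marker genes had negative changes and 6 were called lower (median log2 change -1.48), while none of the pan-neuronal genes was called.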

How the data were processed

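Messenger RNA of the nasomaxillary complex was measured in 3 mutant and 3 control libraries, assigned by genotype as labelled. Extraction was by TRIzol, followed by a TruSeq stranded preparation, per the labels' protocols. The submitters' processing notes name build mm10, the aligners Bowtie2 (2.2.8) and TopHat2 (2.1.1), SAMtools (0.1.18) and Cuffdiff (2.2.1). The authors deposited FPKM values, 1 per gene symbol and library. The sources used here state neither the annotation and strand setting nor any scaling between libraries. Low values fall on steps of whole fragments, and their spacing puts depth at an estimated 14400000, 12700000 and 9500000 fragments in mutant replicates 1 to 3, and at 14100000, 15700000 and 13200000 in control replicates 1 to 3; 79.5% to 82.3% of low values lay within 0.15 of a whole fragment.

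Values were analysed as log2(FPKM + 1), which understates changes of low genes, where the mean over libraries reached 1 FPKM. Limma 3.58.1 in R 4.3.3 (eBayes with trend, two-sided, no covariate, 4 residual degrees of freedom) was adjusted by Benjamini-Hochberg over all tested genes and was tested on simulated data. Single genes, ratios and correlations used exact permutation tests over libraries. Errors are SD over 3 libraries, or SE of log2 changes.

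Positions are from GENCODE for GRCm38, the coordinates of mm10, and promoters from RefSeq. The members and lists were chosen with earlier results of these data known. Genes named are the 10 members and, from each list, called genes, the 2 most abundant and the 2 of smallest p, and the 8 nearest in pattern; a few others were named after their values were seen, and some genes that this rule names are not reported here. The settings varied were the pseudocount (0.1, 0.5), the filter (none, 5 FPKM), 3 scalings, other eBayes settings, library weights, a threshold of 0.1, sex or muscle as a covariate, and leaving out each library. Plots were drawn with matplotlib 3.10.9 in Python 3.11.15.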

Additional observations from a re-analysis of the deposited data

How the results depend on the processing

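Over 159 log2 changes of the members under the alternatives, 0 passed a limma adjusted p of 0.05 (lowest 0.31), and 18 had the other sign. No paired analysis was possible because the labels number no replicates: the numbers used here follow accession order within each group and tie no mutant library to a control library. With muscle as a covariate the log2 changes were 0.054 for Tubb3, 0.29 for Stmn2, 0.20 for Elavl3 and 0.12 for Elavl4. With sex as a covariate mutant replicate 1 alone stood against the controls. The changes were then -0.12 for Tubb3, -0.00019 for Stmn2, -0.037 for Elavl3, -0.24 for Elavl4, 0.00060 for Nefl and -0.028 for Snap25. Library weights gave 0.011 for Nefl, and quantile normalization gave -0.0097 for Syt1. Leaving out 1 library gave ranges of -0.39 to -0.14 for Tubb3, -0.24 to 0.050 for Stmn2, -0.054 to 0.073 for Nefl, 0.15 to 0.31 for Nefm, -0.23 to 0.0068 for Elavl3, -0.61 to -0.16 for Elavl4, -0.12 to 0.14 for Snap25, -0.087 to 0.11 for Syt1 and -0.030 to 0.092 for Slc17a6. Syt1 and Snap25 turned negative without mutant replicate 3 or control replicate 1, Slc17a6 without mutant replicate 3 or control replicate 3, Nefl positive without mutant replicate 3 or control replicate 2, and Stmn2 and Elavl3 positive without mutant replicate 2. The cause was not tested. At a threshold of 0.1, 1 neuron list gene, Scg2, was called lower, against 0 at 0.05, and Scg2 was called at 0.05 in 0 of 17 alternatives (limma adjusted p from 0.061 to 0.889). S100b was called in 16 of 18, and not with sex or muscle as a covariate. Its log2 change was -0.80 with sex and -0.78 with muscle, beside -0.76 without a covariate. The median r over pairs was 0.82 with a mean of at least 5 FPKM, which leaves out Nefl, Nefm and Slc17a6, and 0.34 to 0.61 without any 1 library. The count of non-overlapping ratios was 10 to 22 without any 1 library, an alternative chosen after seeing the data. The scalings moved the median of all genes by at most 0.0023 (log2). Depth limits Gad1 and Nefm most, and FPKM gives no exact counts.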
